A study of Mus musculus with 7 samples.

Results

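Expression was examined for 10 genes that are known from macrophages of the spleen and other tissues, namely Spic, Vcam1, Hmox1, Slc40a1, Cd163, C1qa, C1qb and C1qc, together with Hpgd and Igf1, out of 25033 genes counted in RNA-seq libraries labelled as primary T-cells. They were selected on their read counts in this same comparison, after values of these libraries were known, so every level and fold change given for them is a description and none is tested. The libraries came from C57BL/6J mice of 15 months, 3 of the WT group and 4 of the ORP4L knock-in (ORP4L KI) group, 1 mouse each. Per the study's figure legend for the RNA sequencing, the WT mice were littermates and the ORP4L KI mice were taken when moribund. The knock-in allele sits in the Rosa26 locus and places human ORP4L with a Flag tag and EGFP behind a CAG promoter and a lox-flanked stop, which a Cre transgene under the Lck promoter removes. The methods describe T-cells prepared from blood mononuclear cells or from collagenase-digested spleen, a red blood cell lysis, a kit for naive CD4+ T-cells and culture with IL-2 and PHA. Neither the labels nor the methods say which of blood or spleen gave each library or whether the sequenced cells had been cultured.

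Red pulp macrophages of the spleen clear aged red blood cells. They take up hemoglobin, split its heme, store the iron and export it, and their development depends on the transcription factor Spi-C. C1q is the recognition protein of the classical complement pathway, is built of A, B and C chains, and is made largely by tissue macrophages and some dendritic cells. Hpgd encodes the dehydrogenase that inactivates prostaglandins, and Igf1 encodes insulin-like growth factor 1, which macrophages can secrete.

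The 10 genes were counted in every library. Values of single libraries are given in the order of the replicate numbers, 1 to 3 for WT and 1 to 4 for ORP4L KI. The WT libraries held 3819, 7090 and 2864 reads of the 10 genes together, and the ORP4L KI libraries 4457, 2353, 3063 and 4356. That is between 222 and 446 counts per 1000000 reads (CPM) before scaling in the WT libraries and between 140 and 250 in the ORP4L KI libraries. The smallest count of any of them was 14 reads, for Igf1 in ORP4L KI replicate 2, against a detection floor of 3 reads.

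Per length, Hmox1 was the most abundant and Igf1 the least in both groups. In the deposited RPKM (CPM divided by the length, in kilobases, of the longest listed transcript), the WT means were 77.1 ± 35.2 (SD, n = 3) for Hmox1, 30.3 ± 17.7 for C1qb, 29.2 ± 12.7 for C1qc and 27.9 ± 12.8 for C1qa. Hpgd at 12.4 ± 4.96, Vcam1 at 9.66 ± 1.97, Slc40a1 at 6.68 ± 0.814 and Spic at 5.78 ± 2.08 followed, and Cd163 at 0.895 ± 0.258 and Igf1 at 0.524 ± 0.247 were lowest. The 3 C1q chains did not differ beyond their spread, nor did Hpgd from Vcam1 or Slc40a1 from Spic. In the ORP4L KI libraries the RPKM means were 55.9 ± 17.2 (SD, n = 4) for Hmox1, 15.3 ± 3.89 for C1qb, 15.0 ± 4.64 for C1qa and 14.5 ± 3.67 for C1qc. The mean of Hpgd stood below those of Vcam1 and Slc40a1 there, at 2.96 ± 1.00 against 7.80 ± 1.72 and 6.94 ± 4.45.

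C1qb, C1qc and C1qa lie next to each other on chromosome 4 of GRCm38.p6, at 136880126 to 136886200, 136889801 to 136892936 and 136895916 to 136898844. Spic (88675269 to 88683023) and Igf1 (87858265 to 87937047) are on chromosome 10, and Hmox1 (75093618 to 75100593) and Hpgd (56294552 to 56321046) are on chromosome 8. Vcam1 is on chromosome 3, Slc40a1 on chromosome 1 and Cd163 on chromosome 6. RefSeq promoter windows were at hand for 6 of the 10 genes, Spic, Cd163, C1qb, C1qc, Hpgd and Igf1. The 250 bases before the start given there are printed for 4 of these, the 2 C1q chains because they followed each other over the libraries and Spic and Hpgd because their groups did not overlap. Capitals mark AGGAAG on either strand, the purine-rich core that SPI factors such as Spi-C and PU.1 bind. The windows on GRCm38.p6 are chr4:136886201-136886450 (minus strand) for C1qb, chr4:136892915-136893164 (minus) for C1qc, chr10:88683024-88683273 (minus) for Spic and chr8:56294302-56294551 (plus) for Hpgd.
C1qb: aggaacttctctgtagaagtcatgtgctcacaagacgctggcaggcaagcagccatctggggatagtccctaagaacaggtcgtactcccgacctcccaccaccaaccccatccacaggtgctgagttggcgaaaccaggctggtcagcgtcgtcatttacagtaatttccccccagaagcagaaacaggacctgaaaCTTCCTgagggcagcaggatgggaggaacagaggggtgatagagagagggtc
C1qc: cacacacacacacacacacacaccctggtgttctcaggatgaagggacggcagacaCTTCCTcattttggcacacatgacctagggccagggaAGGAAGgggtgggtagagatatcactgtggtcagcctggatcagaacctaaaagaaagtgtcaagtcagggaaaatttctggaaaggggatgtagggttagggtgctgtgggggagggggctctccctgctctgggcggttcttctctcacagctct
Spic: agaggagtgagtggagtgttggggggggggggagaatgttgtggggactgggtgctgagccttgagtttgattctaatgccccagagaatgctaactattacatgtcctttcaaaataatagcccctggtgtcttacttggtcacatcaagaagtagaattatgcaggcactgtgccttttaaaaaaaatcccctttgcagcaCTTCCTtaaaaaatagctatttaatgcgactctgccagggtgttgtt
Hpgd: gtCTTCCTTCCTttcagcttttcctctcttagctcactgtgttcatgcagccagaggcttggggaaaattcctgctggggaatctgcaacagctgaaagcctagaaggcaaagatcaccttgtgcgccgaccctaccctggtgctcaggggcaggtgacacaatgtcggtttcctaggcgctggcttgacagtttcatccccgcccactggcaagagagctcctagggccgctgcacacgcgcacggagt
The letters were found in 5 of the 6 windows, against 29.5% of the 32851 windows of the same length in the table. C1qc held 2 matches, beginning 194 and 157 bases before the start, and the 2 in Hpgd overlap each other. C1qb held 1 at 52 bases, Spic 1 at 47 bases and Igf1 1 at 59 bases, and Cd163 held none. For C1qc, Cd163 and Igf1 the start used for the window lies inside the span of the gene, so these windows overlap that span. The Igf1 window, 87860861 to 87861110, lies wholly inside it. These are matches of letters and do not show binding.

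Across 13462 genes that passed a filter on low counts, 630 were called between the groups (4.68%), which required a log2 fold change beyond 1 in either direction and p, before adjustment, below 0.01 in edgeR's quasi-likelihood test. Of these, 310 were lower in ORP4L KI (2.30%) and 320 were higher (2.38%), while 3 genes (0.0223%) had an adjusted p under 0.05. Total counts lay between 12918187 and 15912921 in WT and between 16757959 and 19665679 in ORP4L KI. Osbp2, the mouse gene of ORP4L, was counted at 0, 0 and 1 reads in the WT libraries and at 188, 742, 155 and 443 reads in the ORP4L KI libraries. The libraries stood apart in marker genes of other cells. The 12 granulocyte genes listed summed to 1685 to 4877 CPM in WT and to 10228 to 145489 CPM in ORP4L KI, highest in replicate 1, where the 12 T-cell genes were lowest at 1539 CPM. Xist was above Ddx3y in WT replicate 1 and ORP4L KI replicates 1 and 2 and below it in the other 4 libraries, so both groups held mice of either sex.

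All 10 genes passed the filter, and 9 of them had a negative log2 fold change (ORP4L KI minus WT), against 48.5% of all genes tested. Their median was -0.84, beside 0.01 over all genes tested. The calls, which the choice of genes had in view, were Spic and Hpgd, both lower. For these same 2 the groups did not overlap and WT was higher throughout, as for 993 of all genes tested (7.38%). WT replicate 2 was the highest library for 9 of the 10 and ORP4L KI replicate 2 the lowest for 9. The median was -0.35 without WT replicate 2 and -0.99 without ORP4L KI replicate 1. In bulk libraries, fewer cells of a type and less RNA per cell cannot be told apart.

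**Figure D1:**
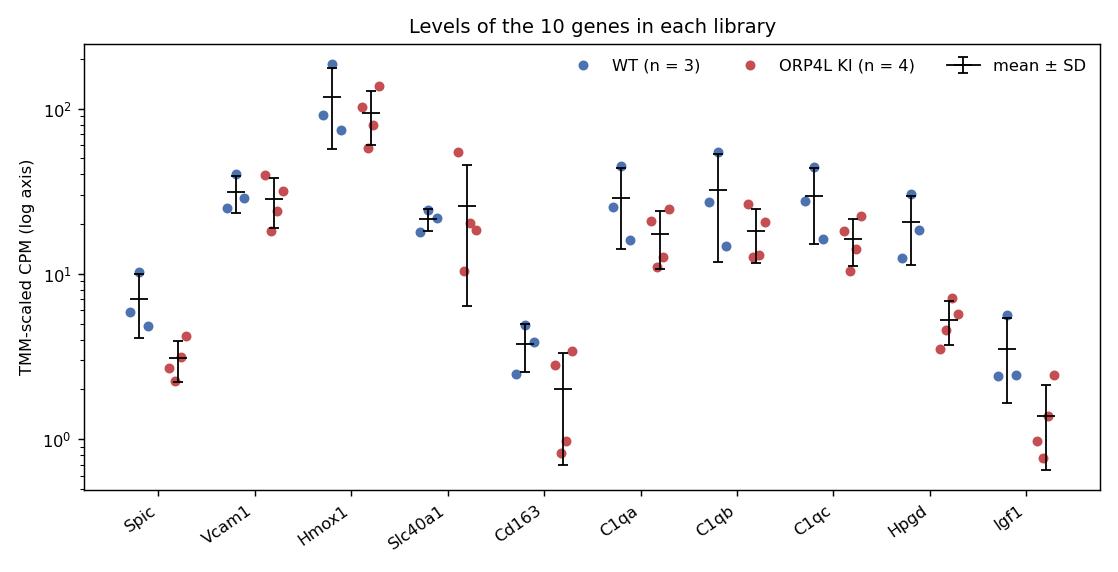
Levels of the 10 genes as TMM-scaled CPM (log axis), 1 point per library, with the mean and SD of 3 WT and 4 ORP4L KI libraries. The ORP4L KI points of Spic and Hpgd lie wholly below the WT points, and the points of the other genes overlap.

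Spic encodes Spi-C, the transcription factor of the SPI family on which red pulp macrophages depend. Its level, in CPM scaled by TMM as for all genes that follow, was 5.84, 10.3 and 4.85 in WT and 2.68, 2.25, 3.16 and 4.23 in ORP4L KI. The highest ORP4L KI library was thus just under the lowest WT library. The mean was 6.999 ± 2.91 CPM (SD, n = 3) in WT and 3.08 ± 0.854 CPM (SD, n = 4) in ORP4L KI, a log2 fold change of -1.19 with a standard error of 0.35. It moved to -0.80 without WT replicate 2, and the call was lost in 5 of the 7 fits with 1 library left out.

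Hmox1 and Slc40a1 carry the iron steps downstream. Hmox1 encodes heme oxygenase 1, which opens the heme ring and frees its iron. It stood at 90.8, 185 and 74.1 CPM in WT and at 102, 57.7, 79.3 and 137 CPM in ORP4L KI. The ORP4L KI libraries lay within or below the WT range, and the log2 fold change was -0.31 with a standard error of 0.37. Without WT replicate 2 it was 0.19, so its direction rested on that library.

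Slc40a1 encodes ferroportin, the iron exporter of the cell membrane, and was the only gene of the 10 with a positive value. WT libraries were close together at 18.0, 24.4 and 21.8 CPM. ORP4L KI libraries were at 54.4, 10.5, 20.2 and 18.4 CPM. Replicate 1 stood well above all others, and the remaining 3 were within or below the WT range. The log2 fold change of 0.28 with a standard error of 0.48 became -0.39 without ORP4L KI replicate 1 and was -0.13 from the RPKM. In that library the granulocyte list summed to 145489 CPM, and the part of this in the Slc40a1 value was not tested.

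Cd163 encodes the scavenger receptor for hemoglobin bound to haptoglobin. Its counts were low, between 15 and 78 reads. It was at 2.48, 4.91 and 3.86 CPM in WT and at 2.80, 0.822, 0.976 and 3.42 CPM in ORP4L KI. ORP4L KI replicates 2 and 3 fell below every WT library and replicates 1 and 4 lay among them. The log2 fold change was -0.91 with a standard error of 0.53, against a standard deviation between replicates of 0.81 on the same scale.

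Vcam1 encodes an adhesion molecule of red pulp macrophages and endothelium that binds integrins on lymphocytes. It was at 24.9, 40.2 and 28.6 CPM in WT and at 39.6, 18.1, 24.1 and 31.8 CPM in ORP4L KI. The groups overlapped over nearly their whole range. The log2 fold change of -0.14 had a standard error of 0.29 and became 0.09 without WT replicate 2.

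The C1q chains followed each other closely. C1qa was at 25.5, 45.2 and 16.1 CPM in WT and at 20.9, 11.1, 12.6 and 24.8 CPM in ORP4L KI. C1qb was at 27.1, 54.8 and 14.8 CPM in WT and at 26.4, 12.7, 13.04 and 20.6 CPM in ORP4L KI. C1qc was at 27.7, 44.6 and 16.2 CPM in WT and at 18.3, 10.4, 14.1 and 22.3 CPM in ORP4L KI. In each chain ORP4L KI replicates 2 and 3 were below every WT library, replicates 1 and 4 were above WT replicate 3, and WT replicate 2 was highest of all. The log2 fold changes were -0.74 for C1qa, -0.83 for C1qb and -0.86 for C1qc, with standard errors of 0.39, 0.43 and 0.36. Without WT replicate 2 they were -0.27, -0.21 and -0.43. Within a library the highest chain exceeded the lowest by 1.11 to 1.38 times in RPKM.

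Hpgd had the largest difference of the 10. It was at 12.5, 30.5 and 18.4 CPM in WT and at 3.53, 4.601, 7.18 and 5.72 CPM in ORP4L KI. The groups did not overlap, and the lowest WT library was well above the highest ORP4L KI library. The mean was 20.5 ± 9.18 CPM (SD, n = 3) in WT and 5.26 ± 1.56 CPM (SD, n = 4) in ORP4L KI, so that WT was 3.89 times the ORP4L KI mean, and the log2 fold change was -1.96 with a standard error of 0.35. It ranged from -2.22 without WT replicate 1 to -1.55 without WT replicate 2.

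Igf1 was at 2.42, 5.66 and 2.46 CPM in WT and at 0.974, 0.767, 1.38 and 2.43 CPM in ORP4L KI. Replicates 1 to 3 of ORP4L KI were below every WT library, while replicate 4 matched WT replicate 1, each with 39 reads. The means were 3.51 ± 1.86 CPM (SD, n = 3) and 1.39 ± 0.738 CPM (SD, n = 4), with a log2 fold change of -1.34 and a standard error of 0.49. It was -0.82 without WT replicate 2.

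**Figure D2:**
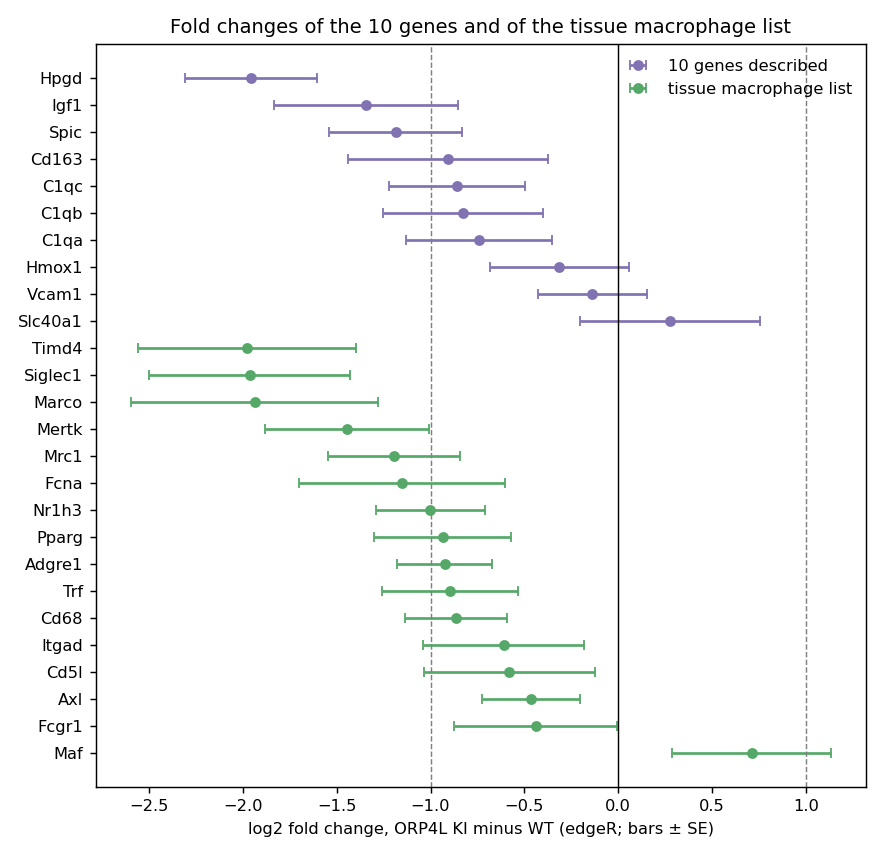
Log2 fold changes of ORP4L KI against WT from edgeR with bars of 1 standard error, for the 10 genes and for 16 of the 17 tested genes of the tissue macrophage list, with dashed lines at a log2 fold change of 1 in either direction. Hpgd (-1.96) is lowest of the 10 and Slc40a1 (0.28) highest, and Maf is the single plotted gene of the list above 0.

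The order of the libraries was not the same for all 10. The root mean square difference of log2 CPM over the 7 libraries, each gene centred on its own mean, was 0.12 between C1qa and C1qc, 0.20 between C1qa and C1qb and 0.23 between Spic and Igf1, the 3 closest pairs. Hmox1 lay 0.25 from C1qa. Hpgd was farthest from Slc40a1, at 1.27, and 0.77 to 0.91 from the C1q chains. Among the ORP4L KI libraries, replicate 2 was lowest for 9 of the genes, whereas Hpgd was lowest in replicate 1 and highest in replicate 3.

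**Figure D3:**
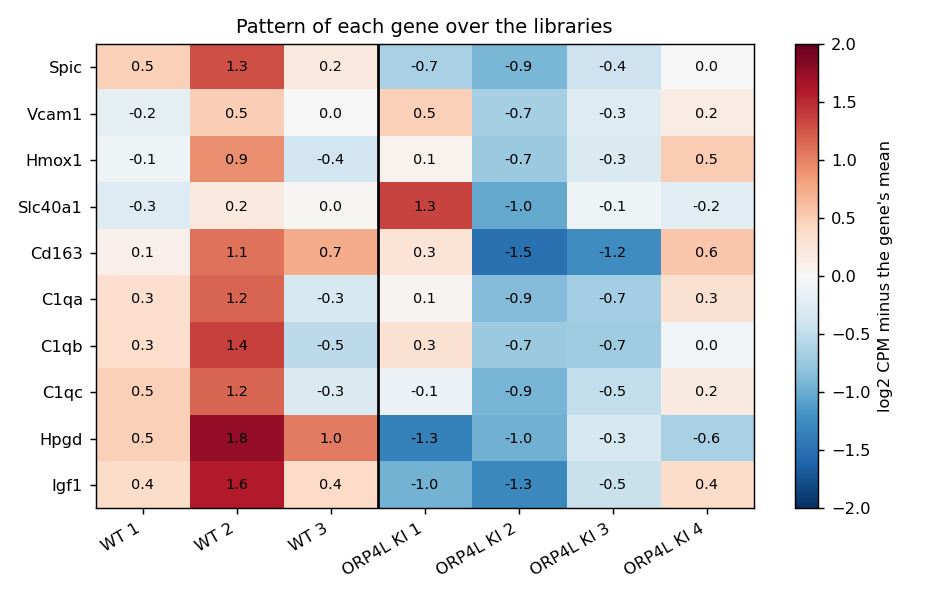
Log2 CPM of each gene minus its mean over the 7 libraries, in colour and in figures, with a line between WT and ORP4L KI. WT replicate 2 is the highest library for every gene but Slc40a1, and Hpgd and Igf1 are low in ORP4L KI replicate 1 where Slc40a1 is high.

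To set the genes against a common level within a library, each RPKM was divided by the mean RPKM of the 3 C1q chains, which was 26.8, 44.5 and 16.0 in WT and 16.8, 11.5, 12.2 and 19.2 in ORP4L KI. For Hpgd the ratio was 0.293, 0.398 and 0.735 in WT and 0.102, 0.254, 0.341 and 0.159 in ORP4L KI, so that 3 of 4 ORP4L KI libraries were below every WT library. Spic gave 0.186, 0.183 and 0.263 in WT and 0.105, 0.168, 0.204 and 0.160 in ORP4L KI, again with 3 of 4 below. The Hmox1 ratio went the other way, at 2.32, 2.64 and 3.23 in WT and 3.19, 3.47, 4.10 and 4.17 in ORP4L KI, with 3 of 4 libraries above every WT library. The C1q chains in the divisor had negative log2 fold changes, and Hmox1 alone had -0.31 with a standard error of 0.37. The higher ratio is thus not a higher level of Hmox1. The Vcam1 ratio was 0.380 ± 0.172 (SD, n = 3) in WT and 0.527 ± 0.0628 (SD, n = 4) in ORP4L KI, and that of Slc40a1 was 0.273 ± 0.149 and 0.460 ± 0.246. Igf1 gave 0.0188 ± 0.00512 and 0.0125 ± 0.00467. The groups overlapped in the ratio of every gene.

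**Figure D4:**
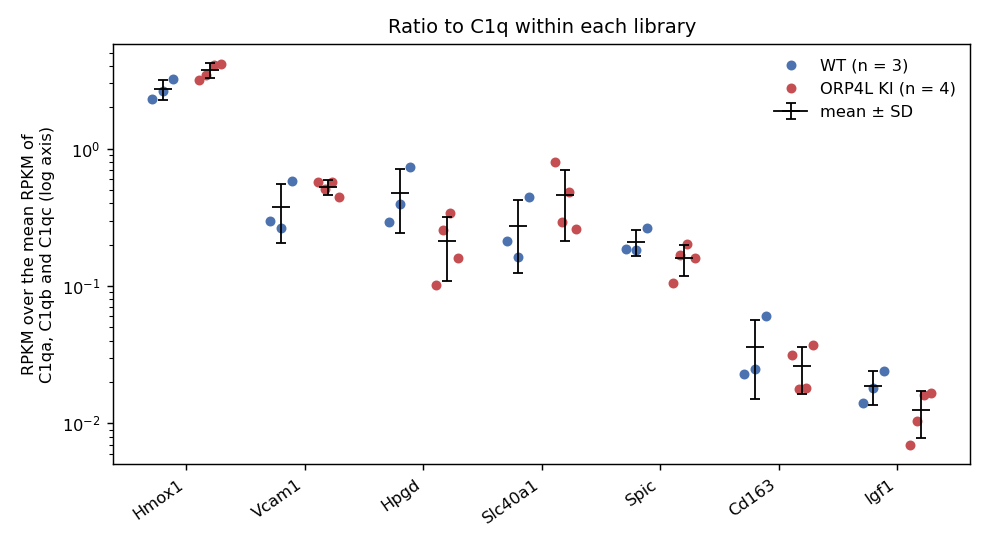
RPKM of the other 7 genes divided by the mean RPKM of C1qa, C1qb and C1qc in the same library (log axis), 1 point per library with the mean and SD of each group. Hpgd and Spic ratios lie lower in ORP4L KI and Hmox1 ratios higher, with overlap in each.

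The libraries with high Xist were 1 WT and 2 ORP4L KI, and those with high Ddx3y were 2 and 2. The ORP4L KI libraries were below WT in both classes for Spic, Hpgd and Igf1, as were 10.2% of all genes tested. For Spic and Hpgd this follows from groups that do not overlap. For Igf1 the high-Ddx3y class was a near tie, 2.43 CPM in ORP4L KI replicate 4 against 2.46 CPM in WT replicate 3. These are the values on which the genes were chosen, and nothing was tested. The WT mean of Hpgd was 3.07 times the ORP4L KI mean in the first class and 3.79 times in the second, and for Spic it was 2.37 and 2.05 times. For the C1q chains the ORP4L KI libraries were below WT only in the high-Xist class.

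Genes whose pattern over the 7 libraries was most like these were sought among all tested genes with a mean log2 CPM of at least 1. For Hpgd they were Dll4, Ptgs2 and Clec9a, the last of which is also on the dendritic cell list, with root mean square differences of 0.29 each. For Igf1 they were Spic at 0.23, Tmem132a at 0.24 and Tnfsf9 at 0.26. For the mean of the C1q chains they were Lrrc25 at 0.18, Snx20 at 0.20 and Tmem51 at 0.21.

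Other genes of tissue macrophages had mostly negative log2 fold changes. The list was chosen with earlier results of these data known. Of 20 on the list, 17 were tested, and 6 were called lower and none higher, beside 2.30% and 2.38% of all genes tested. A negative value was found for 16 under each of the 4 scalings tried, beside 48.5% of all genes tested. The median of the list was -0.94. Siglec1, a sialic acid receptor of marginal zone and other macrophages, was at 2.61, 1.82 and 2.46 CPM in WT and at 0.122, 0.603, 0.976 and 0.622 CPM in ORP4L KI. In ORP4L KI replicate 1 this was 2 reads, under the detection floor of 3 reads. Siglec1 fell by 1.96 on the log2 scale (SE 0.54, edgeR adjusted p = 0.14). The phosphatidylserine receptor Timd4 fell by 1.98 (SE 0.58) and the efferocytosis kinase Mertk by 1.44 (SE 0.44). Their counts were low, 5 to 53 reads for Timd4 and 8 to 45 for Mertk. The mannose receptor Mrc1 fell by 1.19 (SE 0.35) and the oxysterol receptor Nr1h3 by 1.00 (SE 0.29). Nr1h3 lay on the size line, and settings that lost its call included DESeq2 size factors, no filter and the DESeq2 Wald test. Adgre1, the gene of F4/80, was at 38.1, 59.7 and 42.5 CPM in WT and at 32.1, 19.6, 27.9 and 19.1 CPM in ORP4L KI and missed the call with a log2 fold change of -0.92. No gene of the list had an adjusted p under 0.05 in edgeR, against 5 in DESeq2, and 11 had an unadjusted p under 0.05. The 6 calls became 2 without WT replicate 2 or without ORP4L KI replicate 3. Clec4f, a marker of Kupffer cells named here for its counts, was at 0 in 6 of the 7 libraries.

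Among 20 genes of heme and iron handling, 17 were tested and none was called in edgeR or in DESeq2. In edgeR 2 had an unadjusted p under 0.05, and in DESeq2 1 had an adjusted p under 0.05. The median log2 fold change was -0.09. The ferritin chains Fth1 and Ftl1, which store iron, had log2 fold changes of 0.65 and -0.09 with standard errors of 0.48 and 0.40. Lrp1, which takes up heme bound to hemopexin, had -0.96 (edgeR adjusted p = 0.13) and fell short of the size required. Ncoa4, the receptor that delivers ferritin for breakdown, was higher in every ORP4L KI library than in any WT library but had a log2 fold change of only 0.60.

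Of the complement genes, 15 of 16 were tested and 1 was called. C3, the central component of the cascade, was at 172, 181 and 140 CPM in WT and at 613, 220, 347 and 443 CPM in ORP4L KI, a log2 fold change of 1.30 (SE 0.33, edgeR adjusted p = 0.12). Its sign was opposite to those of the C1q chains. The ORP4L KI libraries ranked for C3 as they did for the summed granulocyte list, which was 145489, 10228, 30628 and 53162 CPM in the same order, and the part of that list in the C3 value was not tested. C1ra, a protease that joins C1q, had a log2 fold change of 0.59 with a standard error of 0.36. The receptors C5ar1 and C3ar1 had 0.85 and 1.32, with standard errors of 0.54 and 0.67.

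In the eicosanoid list around Hpgd, 17 of 18 genes were tested, 1 was called lower and 3 higher. Ptgs2, the inducible cyclooxygenase of prostaglandin synthesis, was at 217, 457 and 461 CPM in WT and at 99.6, 98.8, 182 and 123 CPM in ORP4L KI, a log2 fold change of -1.59 (SE 0.32, edgeR adjusted p = 0.069). The constitutive cyclooxygenase Ptgs1 rose by 2.13, and the lipoxygenases Alox5 and Alox15 by 1.81 and 3.40. Each of these 3 was highest in ORP4L KI replicate 1, at 78.3, 149 and 39.1 CPM, the library where the granulocyte list was highest. The part of that list in their values was not tested. Alox5ap, which presents the substrate to the Alox5 enzyme, had a log2 fold change of 0.75 with a standard error of 0.54.

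Around Igf1, 11 of 15 genes were tested and 1 was called. Igfbp7, a secreted binding protein also made by endothelium, was at 26.4, 47.3 and 8.78 CPM in WT and at 4.69, 2.85, 14.4 and 5.16 CPM in ORP4L KI, a log2 fold change of -2.02 (SE 0.62, edgeR adjusted p = 0.18). Of 8 endothelial genes tested, all had a negative value and 2 were called lower, Cdh5 and Stab2, with log2 fold changes of -1.61 and -1.97. Tie1 and Tek had -0.25 and -0.22, with standard errors of 0.52 and 0.65. The part of the endothelial list in the Igfbp7 value was not tested. The receptor Igf1r was at 41.1, 48.0 and 68.8 CPM in WT and at 113, 94.2, 69.3 and 91.8 CPM in ORP4L KI. Its groups did not overlap but nearly tied, at 68.8 CPM in WT replicate 3 against 69.3 CPM in ORP4L KI replicate 3. Its log2 fold change of 0.81 was under the size required.

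Of the 6 SPI, IRF and other ETS factors listed beside Spi-C, Spib and Irf8 were called lower. Irf8, needed for monocytes and dendritic cells, was at 375, 428 and 252 CPM in WT and at 108, 128, 198 and 137 CPM in ORP4L KI, with a log2 fold change of -1.30 (SE 0.27, edgeR adjusted p = 0.071), and Spib had -1.32. Spi1, the gene of PU.1, had -0.09 with a standard error of 0.45. Among integrins and related adhesion genes on the side of the VCAM1 ligands, 6 of 7 were tested and Itga9 was called lower, at -1.29. Itga4, a chain of the integrins that bind VCAM1, had -0.27 with a standard error of 0.49, and its partner chain Itgb7 had -0.54 with a standard error of 0.26.

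Across all of these lists, 89 of 102 genes were tested, 11 were called lower and 4 higher, and none had an adjusted p under 0.05 in edgeR, against 16 in DESeq2, and 25 were at an unadjusted p under 0.05. Their median log2 fold change was -0.20.

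Marker lists of other cells, also chosen with earlier results of these data known, differed as well. Over all genes tested, 2.30% were called lower and 2.38% higher. The dendritic cell list of 8 summed to 499 to 770 CPM in WT and to 152 to 269 CPM in ORP4L KI, and 7 of its genes were called lower, led by Cd209a (log2 fold change -2.41, edgeR adjusted p = 0.047) and Siglech (-2.29). Of the 10 monocyte genes, Csf1r, Ace and Fn1 were called lower and Ly6c2 higher, and the sums of the list overlapped, at 1521 to 2667 CPM in WT and 1286 to 3235 CPM in ORP4L KI. Csf1r, the receptor on which most macrophages depend, was at 228, 345 and 226 CPM in WT and at 138, 98.3, 117 and 120 CPM in ORP4L KI. All 12 granulocyte genes were called higher. Their part and that of the dendritic cell list in the values of the 10 genes was not tested.

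Lists that bear on blood and spleen did not move as 1 group. The 9 erythroid genes summed to 9809 to 18522 CPM in WT and to 1073 to 8547 CPM in ORP4L KI, and none was called in edgeR, against 5 in DESeq2, and 5 were at an unadjusted p under 0.05. Hemoglobin genes Hba-a1, Hba-a2, Hbb-bs and Hbb-bt were lower in every ORP4L KI library than in any WT library, while the membrane gene Slc4a1 had a log2 fold change of 1.24. The 13 genes of splenic stroma summed to 5.34 to 21.6 CPM in WT and 7.23 to 31.9 CPM in ORP4L KI, with Ccl21a at 0 in every library. The highest sum, in ORP4L KI replicate 3, held 19.0 CPM of Col3a1. Tlx1 had 11, 3 and 3 reads in WT and 0, 0, 1 and 0 in ORP4L KI. Nkx2-3 was counted in every library, at 14, 23 and 8 reads in WT and 7, 10, 9 and 8 in ORP4L KI. Cxcl13, a stromal chemokine of B-cell follicles, was called lower at -1.60 (SE 0.48, edgeR adjusted p = 0.16). It had few reads, 59, 28 and 18 in WT and 7, 17, 12 and 14 in ORP4L KI. The endothelial list, which includes Stab2 of sinusoidal cells, summed to 196 to 244 CPM in WT and 93.7 to 171 CPM in ORP4L KI. The T-cell and B-cell lists held no called gene in edgeR or DESeq2 and none at an unadjusted p under 0.05. The platelet list of 6 summed to 199 to 239 CPM in WT and 105 to 404 CPM in ORP4L KI, with no called gene in edgeR, 1 in DESeq2 and 1 at an unadjusted p under 0.05. All 10 genes, Spic, Vcam1, Hmox1 and Slc40a1 among them, were counted above the floor in all 7 libraries. Whether blood or spleen was the source of each library was not tested.

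**Figure D5:**
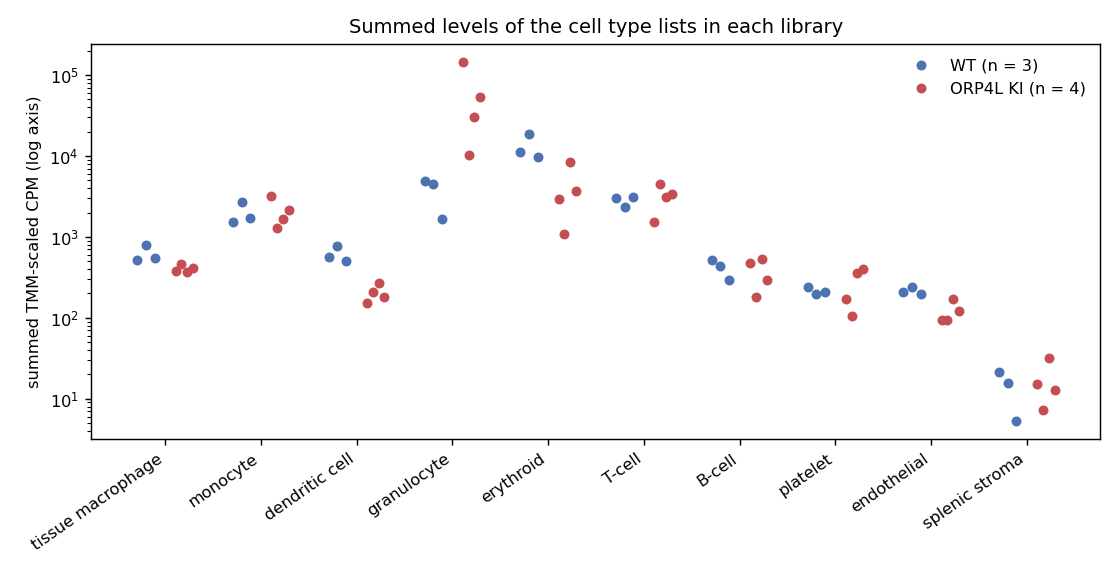
Summed TMM-scaled CPM of the genes of each cell type list (log axis), 1 point per library. The tissue macrophage sum is 512 to 799 in WT and 365 to 462 in ORP4L KI, and Maf holds 238 of the 462 in ORP4L KI replicate 2. The dendritic cell sums do not overlap, and the granulocyte sums are higher in every ORP4L KI library.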

How the data were processed

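Per the study's methods, the authors trimmed adapters, discarded short reads and mapped the rest to a mouse mRNA reference with FANSe3, and the submitters' processing notes name the build mm10. For each of the 7 libraries the authors deposited a table of read counts per gene, which are raw whole-number counts, with RPKM computed from them and the longest transcript. Counts were tested in edgeR 4.0.16 (R 4.3.3) with TMM scaling, filterByExpr (minimum count 10), no covariates and Benjamini-Hochberg adjustment. Calls required p below 0.01 before adjustment and a log2 fold change beyond 1 in either direction, where the study's volcano plot has its lines. CPM are TMM-scaled. DESeq2 1.42.0, other scalings and filters, each library left out, the replicate number as a block, the RPKM (log2 of RPKM + 0.1) and the Xist and Ddx3y class were alternatives. On simulated data, 191 of 197 changed genes (log2 fold change 2) were recovered, with 80 false calls among 13285 genes.

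The 10 genes and all lists were chosen with earlier results of these data known. Genes named from a related list were those called, the 4 with the smallest p and the 2 with the highest mean CPM. Some genes of the lists are counted but not reported here. Promoter windows are from RefSeq (GRCm38.p6), the build that mm10 denotes. The AGGAAG motif, the division by C1q and the 4 printed windows were chosen after values were seen.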

Additional observations from a re-analysis of the deposited data

Results flagged for a closer look

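Of 52 genes named from the 10 genes and the related lists, 4 had a single ORP4L KI library far from the other 3 by Dixon's test, where chance alone gives about 1 in 20. None was among the 10 genes. Mrc1, the mannose receptor, was at 2.74 CPM in ORP4L KI replicate 2 against 5.54 to 5.57 CPM in the others. Maf was at 238 CPM in ORP4L KI replicate 2 against 68.0 to 87.3 CPM. Lrp1 was at 79.2 CPM in ORP4L KI replicate 1 against 55.2 to 59.1 CPM, and Igfbp5 was at 10.1 CPM in ORP4L KI replicate 3 against 0.809 to 1.70 CPM. The 3 WT libraries are too few for this test.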

How the results depend on the processing

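The median log2 fold change of the 10 genes lay between -1.09 (without WT replicate 3) and -0.35 (without WT replicate 2) over the alternatives. Spic, Cd163, Hpgd, Igf1 and the C1q chains were negative in all 16 alternatives, while Vcam1, Hmox1 and Slc40a1 changed sign in 2, 1 and 2 of them. Of the 10, Spic and Hpgd were called, and with 1 library left out between 1 and 3 were. Hpgd was called each time and Spic only without WT replicate 3 or ORP4L KI replicate 4. Igf1 was called without ORP4L KI replicate 4 and C1qc without WT replicate 3. The count was 1 (Hpgd) with the Xist and Ddx3y class as a covariate, an alternative chosen after seeing the data, and 1 (Hpgd) with the replicate block. That block rests on shared numbers alone, since the deviations of same-numbered libraries correlated at 0.15, -0.53 and -0.0018, and it leaves out ORP4L KI replicate 4. The replicate block gave 9 related genes in place of 15, and 48 genes with adjusted p below 0.05, where the unblocked fit had 3. The 6 tissue macrophage calls were 3 with at least 10 counts in every sample, where 13 were tested, and 2 to 6 with 1 library left out.

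Over all genes, 328 (without WT replicate 2) to 805 (without ORP4L KI replicate 2) were called with 1 library left out, and 855 in DESeq2, in place of 630. The number at an adjusted p under 0.05 was 784 in DESeq2, 176 with no filter, 113 on total counts alone and 44 after upper-quartile scaling. In edgeR it was 0 when 10 counts were required in every sample (1549 at an unadjusted p under 0.05), 0 with the Xist and Ddx3y class (1544), and 0 to 342 with 1 library left out, the highest without ORP4L KI replicate 2, and 0 without any 1 WT library or ORP4L KI replicate 4. Total counts alone moved the median of all genes from 0.01 to -0.13 and the share of calls that were higher from 50.8% to 40.3%, and the median of the 10 genes was then -0.996. Cause was not tested for any of these. Counts of 14 to 90 reads limit the precision for Igf1 and 15 to 78 for Cd163.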
